A study of Rattus norvegicus with 6 samples.

Results

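Reelin signalling and neuronal migration genes were examined in polyA RNA-seq of cultured cortical neural progenitors of the rat. The genes were given as a list of 10 symbols, *Reln*, *Dab1*, *Vldlr*, *Lrp8*, *Cdk5*, *Cdk5r1*, *Pafah1b1*, *Nde1*, *Ndel1* and *Trp73*. Of these, 8 matched a gene name in the expression tables, which is 0.0461% of the 17337 gene names listed. The symbols *Lrp8* and *Trp73* matched no gene name. *Lrp8* was not analysed here, and *Tp73*, the rat symbol for which RefSeq lists Trp73 as a synonym, is described beside the 8 genes.

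The cells were taken from the cortices of Sprague Dawley rats of either sex at embryonic day 14, grown with bFGF and EGF, the growth factors that keep progenitors dividing, and harvested once they had been passaged for the second time. All were untreated, so the design holds 1 condition. RNA-seq was done on 2 biological replicates, A and B, each with 2 technical libraries, named A1, A2, B1 and B2 below, while 2 Start-seq samples of short capped RNA were not analysed here. The cultures were bulk populations freed from the tissue and passaged, without the layers through which neurons migrate in the embryo, and the number of animals behind each replicate was not given.

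Reelin, the product of *Reln*, is a large glycoprotein secreted in the developing cortex mainly by Cajal-Retzius cells of the marginal zone. It binds the lipoprotein receptors VLDLR and ApoER2 (the product of *Lrp8*) on migrating neurons, whose Src family kinases then phosphorylate the adaptor Dab1. Cdk5 with its activator p35, encoded by *Cdk5r1*, acts in parallel, and LIS1 (*Pafah1b1*) with Nde1 and Ndel1 regulates cytoplasmic dynein, the motor that pulls the nucleus forward. Loss of Reelin or of Dab1 inverts cortical layering in mice, and loss of 1 copy of the human LIS1 gene causes lissencephaly.

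Expression is given as FPKM, fragments per kilobase of transcript, scaled to the depth of the library, so levels can be compared between genes per unit of length. Values of A and B are means of their technical libraries, and each mean ± SD is over these 2 biological replicates. Library B2 stood apart in depth: 1 FPKM corresponded to a mean coverage of 6.83 reads per base in B2 and of 22.7 to 24.4 in A1, A2 and B1. Progenitor markers were high in all 4 libraries, with 10 of 10 listed markers with a mean of 1 FPKM or more, and their summed FPKM was 21180 and 23262 in A1 and A2 and 10193 and 10987 in B1 and B2. The highest was *Fabp7*, a fatty acid binding protein of radial glia, at 11840 ± 8256 FPKM (SD, n = 2), and without it the sums of A (4380 and 4705) and of B (3674 and 5502) overlapped. Markers of mesenchymal and meningeal cells moved the other way, from a summed 849 and 821 FPKM in A to 2856 and 4364 in B. In a bulk culture fewer cells of a type and less RNA per cell cannot be told apart.

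All 8 genes were present with a mean of 1 FPKM or more, as were 60.5% of the 17337 gene names. *Cdk5* was the most abundant, followed in order by *Pafah1b1*, *Ndel1*, *Nde1*, *Cdk5r1*, *Reln*, *Vldlr* and *Dab1*, and the mean of *Cdk5* was 20.7 times that of *Dab1*. Intracellular kinase and dynein regulators therefore took the 4 highest places, in the same order in A and in B, and the ligand, the receptor and the adaptor took the 3 lowest places by mean. Of the 7 neighbouring pairs in this order, 3 had ranges over the 4 libraries that did not overlap, namely *Cdk5* above *Pafah1b1* (2.64-fold), *Pafah1b1* above *Ndel1* (1.60-fold) and *Nde1* above *Cdk5r1* (2.45-fold). The other 4 pairs overlapped. Below *Nde1* the order itself changed between the replicates, with *Dab1* lowest in A and *Vldlr* lowest in B.

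**Figure D1:**
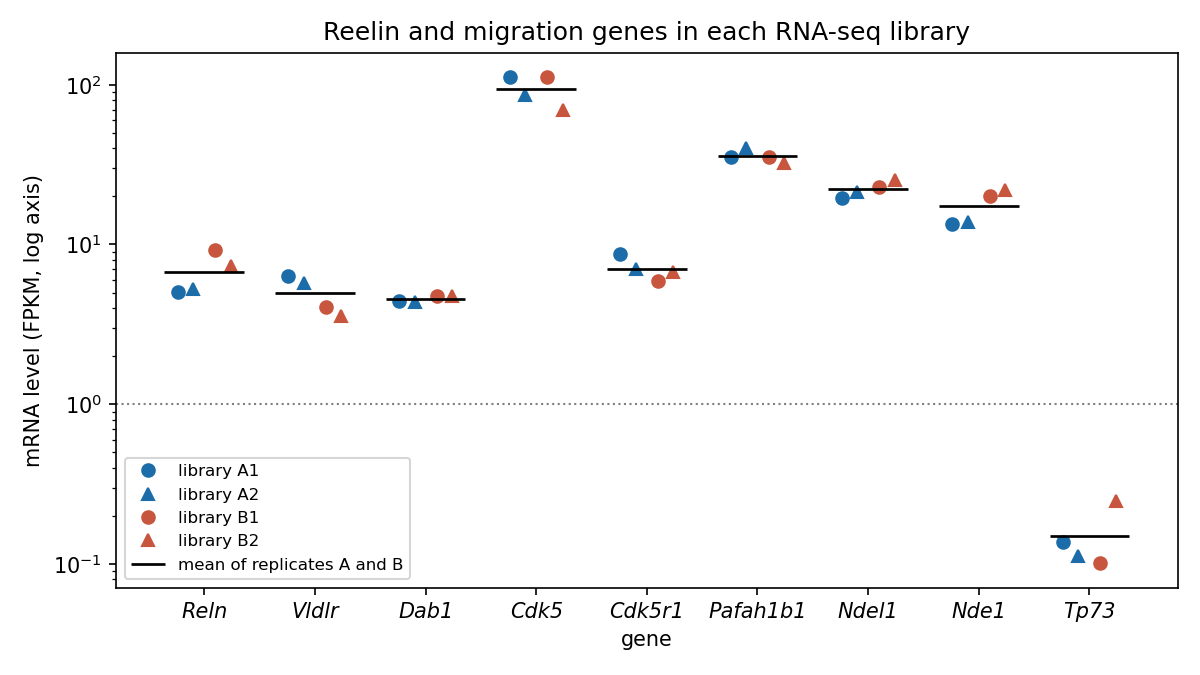
FPKM (log axis) of the 8 genes found by symbol and of *Tp73* in each library, with circles for the first and triangles for the second technical library, blue for replicate A and red for replicate B; bars mark the mean of A and B and the dotted line 1 FPKM. *Cdk5* lies between 69.6 and 111 FPKM, the other 7 genes between 3.56 and 40.3, and *Tp73* below 0.25 (highest 0.248).

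Promoter sequence was compared as the 250 bases before each RefSeq start on the GRCr8 assembly, which is not the rn6 assembly of the expression tables. Of the RefSeq windows used, 8 matched 7 of the 8 genes by symbol, *Dab1* with 2 of them, and none matched *Pafah1b1*. The following windows are shown because they hold the highest and the lowest numbers of CpG dinucleotides among these genes, *Reln* and *Cdk5r1* at the upper end and *Nde1* and *Tp73* at the lower end. Each is written 5′ to 3′ on the strand of the gene, with every CG in capitals.
Reln, chr4:13628318-13628567, plus strand: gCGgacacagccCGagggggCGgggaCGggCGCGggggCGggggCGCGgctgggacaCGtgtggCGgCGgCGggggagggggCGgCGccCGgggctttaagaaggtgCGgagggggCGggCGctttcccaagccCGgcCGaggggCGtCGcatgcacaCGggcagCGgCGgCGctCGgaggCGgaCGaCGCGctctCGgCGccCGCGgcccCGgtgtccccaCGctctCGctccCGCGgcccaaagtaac
Cdk5r1, chr10:65981765-65982014, plus strand: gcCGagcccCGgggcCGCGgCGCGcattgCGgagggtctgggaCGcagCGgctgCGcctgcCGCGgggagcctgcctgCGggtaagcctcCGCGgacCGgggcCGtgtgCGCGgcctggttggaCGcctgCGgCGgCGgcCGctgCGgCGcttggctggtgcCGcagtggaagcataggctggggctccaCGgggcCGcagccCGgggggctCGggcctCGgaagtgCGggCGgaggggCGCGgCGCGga
Nde1, chr10:1383436-1383685, minus strand: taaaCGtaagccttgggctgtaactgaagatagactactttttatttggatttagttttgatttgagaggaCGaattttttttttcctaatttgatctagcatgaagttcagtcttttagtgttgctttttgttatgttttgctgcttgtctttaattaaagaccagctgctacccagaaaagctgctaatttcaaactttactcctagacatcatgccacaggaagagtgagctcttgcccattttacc
Tp73, chr5:169963553-169963802, minus strand: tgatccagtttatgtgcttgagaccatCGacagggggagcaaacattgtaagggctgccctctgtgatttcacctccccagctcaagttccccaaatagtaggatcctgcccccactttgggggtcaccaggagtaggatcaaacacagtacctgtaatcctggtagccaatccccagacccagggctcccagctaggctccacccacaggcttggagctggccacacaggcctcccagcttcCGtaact

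The *Reln* window held 41 CG dinucleotides at 80% GC, and 0.980% of 33469 rat promoter windows of this length held as many or more. The *Cdk5r1* window held 38, at 80.4% GC. By contrast the windows of *Nde1* and *Tp73* held 2 each, at 36% and 56% GC, and 81.9% of all windows held as many or more. The remaining windows held 11 and 35 in *Dab1*, 30 in *Vldlr*, 22 in *Cdk5* and 21 in *Ndel1*, against a median of 5 and quartiles of 2 and 15 over all windows. CG reads the same on both strands, so a single search covers both.

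Counting gene names with a window of at least 20 CG, a limit chosen after the counts were seen, 6 of the 7 genes with a window reached it, as did 30.8% of the 11682 gene names matched to a window by symbol. Among those matched names 89.0% of the CG-rich and 59.0% of the others were with a mean of 1 FPKM or more. Once at that level their medians lay closer, at 19.6 and 16.1 FPKM. *Nde1*, the 1 gene of the 7 below the limit, was expressed above *Reln* and *Cdk5r1*, whose windows were the richest. The CG counts describe these windows of the reference only, and whether they are the starts used in these cells was not tested.

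**Figure D2:**
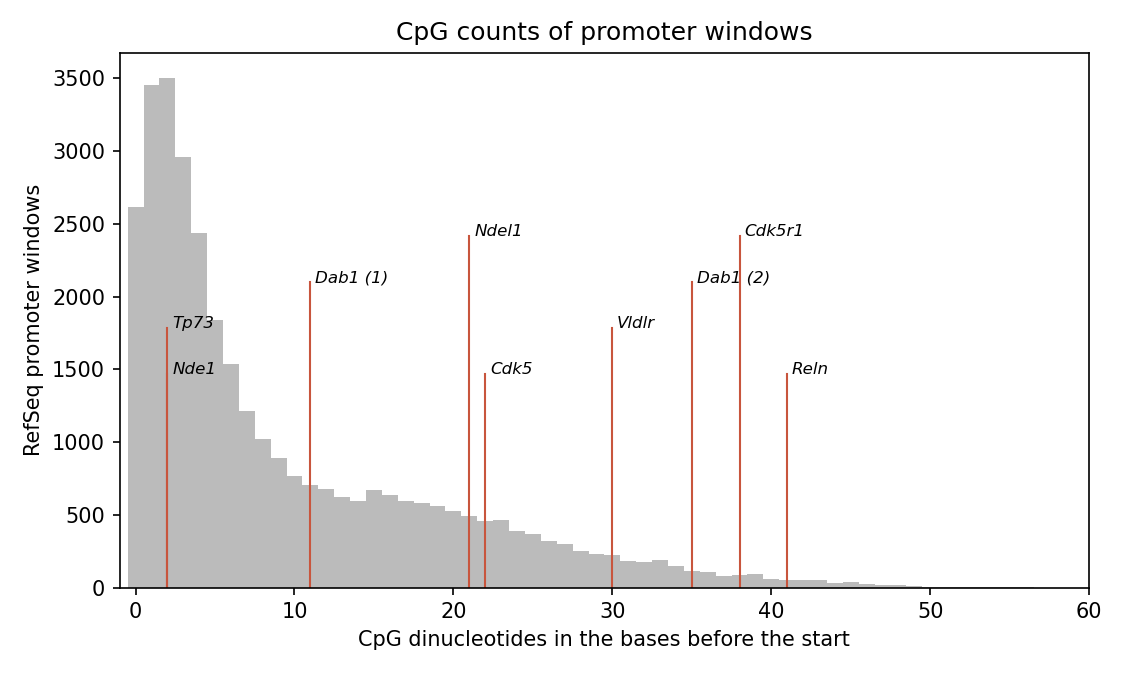
Number of RefSeq promoter windows (vertical axis) by the number of CG dinucleotides in the 250 bases before the start (horizontal axis), with lines for the windows of the named genes. *Reln* (41) and *Cdk5r1* (38) lie in the far right tail and *Nde1* and *Tp73* (2 each) at the lower quartile.

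*Reln*, the ligand gene, spans 426509 bp on the plus strand of chromosome 4 (9347607 to 9774115, rn6). Its level was 5.04 and 5.26 FPKM in A1 and A2 and 9.21 and 7.38 in B1 and B2. Both libraries of B were above both of A, and the mean was 6.72 ± 2.23 FPKM (SD, n = 2), rank 7558 of 17337 gene names. Replicate B exceeded A 1.61-fold, a difference of 0.60 on the log2(FPKM + 1) scale, while the technical libraries differed by 0.05 in A and by 0.29 in B in absolute terms. On this scale it was the largest difference among the 8 genes, close to the 0.59 of *Nde1*, while in TPM, a unit scaled to the same total in each library, *Vldlr* differed more (−0.65 against 0.58). In FPKM 16.1% of the 10481 gene names with a mean of 1 FPKM or more differed by as much or more in either direction.

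*Vldlr*, the receptor gene of the list that could be measured, lies on the plus strand of chromosome 1 (245237736 to 245269205, rn6, 31470 bp). Its level was 6.39 and 5.76 FPKM in the libraries of A and 4.03 and 3.56 in those of B, a mean of 4.94 ± 1.61 (SD, n = 2). The order was opposite to that of the ligand: every library of A was above every library of B, 1.60-fold on average and by −0.56 on the log2(FPKM + 1) scale for B minus A. Differences at least this large were seen in 18.1% of the 10481 names.

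The amount of *Reln* mRNA relative to *Vldlr* mRNA, a ratio formed after the values were seen, was 0.788 and 0.913 in A1 and A2 and 2.28 and 2.08 in B1 and B2. *Vldlr* transcript thus exceeded *Reln* transcript in both libraries of A, and *Reln* exceeded *Vldlr* in both libraries of B. *Lrp8*, the other receptor gene, was not measured, so the ratio does not give ligand against all receptor transcript. Over the 2 replicates the log2 ratio was 0.45 ± 0.97 (SD), so its mean was smaller than its spread.

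*Dab1*, which encodes the cytoplasmic adaptor bound to the receptor tails, spans 245379 bp on the plus strand of chromosome 5 (124021366 to 124266744, rn6). It was the steadiest of the 8 genes, with 4.40 and 4.38 FPKM in A1 and A2 and 4.76 in both B1 and B2. The mean was 4.58 ± 0.262 FPKM (SD, n = 2) and the difference of B from A was 0.10 on the log2(FPKM + 1) scale. The libraries of A and B did not overlap, but 78.1% of the 10481 names differed by as much or more. Relative to this adaptor, *Vldlr* was 1.38-fold in A and 0.797-fold in B, a ratio also formed after the values were seen.

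*Cdk5* encodes a kinase that is active in neurons once bound by p35 or p39. It lies within 4483 bp on the plus strand of chromosome 4 (7282945 to 7287427, rn6). Its level was 111 and 86.5 FPKM in A1 and A2 and 111 and 69.6 in B1 and B2, a mean of 94.7 ± 6.00 (SD, n = 2) and rank 1125 of 17337. The first technical library was the higher in both replicates, and the libraries of A and B overlapped. On the log2(FPKM + 1) scale the technical libraries differed by −0.36 in A and −0.67 in B (second minus first), more than B from A at −0.13. Without B2, the shallowest library, the last value became 0.17, so no direction between A and B was given by these data.

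*Cdk5r1*, the gene of the activator p35, is a short gene of 1192 bp on the plus strand of chromosome 10 (67862064 to 67863255, rn6). It was measured at 8.67 and 6.99 FPKM in A1 and A2 and at 5.91 and 6.72 in B1 and B2, a mean of 7.07 ± 1.07 (SD, n = 2). Both libraries of A were above both of B, but the technical libraries of A differed by as much (−0.28 on the log2(FPKM + 1) scale) as B from A (−0.27). The tables list *Rnf135*, a ubiquitin ligase gene on the same strand, with a span of 428854 bp that contains *Cdk5r1*, but the 2 genes do not overlap in RefSeq on GRCr8.

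Kinase transcript exceeded activator transcript in every library. *Cdk5* was 12.8 and 12.4 times *Cdk5r1* in A1 and A2 and 18.8 and 10.3 times in B1 and B2, and the log2 ratio of *Cdk5r1* to *Cdk5* was −3.75 ± 0.13 over A and B (SD, n = 2). The libraries of B bracketed those of A, so the ratio varied more between the technical libraries of B than between the replicates. *Cdk5r2*, which encodes the related activator p39, was lower, at 1.32 ± 0.234 FPKM (SD, n = 2). *Cdk5r1* was 5.28 times *Cdk5r2* in A and 5.48 times in B, a ratio formed after the values were seen.

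*Pafah1b1*, encoding the dynein regulator LIS1, spans 120197 bp on the minus strand of chromosome 10 (61457216 to 61577412, rn6). It was measured at 35.2 and 40.3 FPKM in A1 and A2 and at 35.4 and 32.4 in B1 and B2. The libraries of A and B overlapped, with a mean of 35.8 ± 2.75 (SD, n = 2), rank 3009, and a difference of −0.15 for B minus A on the log2(FPKM + 1) scale, smaller than the 0.19 between A2 and A1. Without library B2 the difference of *Pafah1b1* was −0.09. Among these genes only *Cdk5* and *Pafah1b1* had overlapping libraries.

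*Ndel1* and *Nde1* encode related scaffold proteins that tie LIS1 to dynein. *Ndel1* (chromosome 10, minus strand, 55411890 to 55444720, rn6) was measured at 19.7 and 21.5 FPKM in A1 and A2 and at 22.9 and 25.4 in B1 and B2, a mean of 22.3 ± 2.50 (SD, n = 2). Both libraries of B were above those of A, by 0.22 on the log2(FPKM + 1) scale, against technical differences of 0.12 and 0.14. Without library B2 the difference of B from A was 0.15, close to these technical differences.

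*Nde1*, which is needed for the division of cortical progenitors, lies on the same strand of chromosome 10 (860521 to 896938, rn6, 36418 bp). It differed more between the replicates than *Ndel1*, with 13.4 and 13.8 FPKM in A1 and A2 and 20.1 and 22.1 in B1 and B2. The mean was 17.3 ± 5.27 FPKM (SD, n = 2), and B exceeded A 1.55-fold, or by 0.59 on the log2(FPKM + 1) scale, more than the technical differences of 0.05 and 0.13. Differences of this size or larger were found for 16.3% of the 10481 names.

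The tables list *Marf1*, a gene of the opposite strand, with a span of 925230 bp that contains *Nde1*. *Mir484*, a gene of the same strand as *Nde1*, is listed with a span of 880639 bp that also contains it. The level of *Mir484* was 0.0999 ± 0.123 FPKM (SD, n = 2). In RefSeq on GRCr8 neither gene overlaps *Nde1*. Whether strand was used in counting was not given in the sources used here.

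Within each library *Ndel1* was above *Nde1*, although their ranges over all libraries overlapped. The ratio of *Nde1* to *Ndel1* was 0.680 and 0.645 in A1 and A2 and 0.877 and 0.871 in B1 and B2, and its log2 value was −0.39 ± 0.28 over the 2 replicates (SD). The pair therefore stood closer together in B. LIS1 transcript exceeded both in each library, 2.77 times *Nde1* in A and 1.61 times in B, and 1.84 and 1.41 times *Ndel1*, ratios formed after the values were seen.

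*Tp73* encodes p73, a p53 family transcription factor that marks Cajal-Retzius cells together with Reelin. It was listed at 0.137 and 0.112 FPKM in A1 and A2 and at 0.101 and 0.248 in B1 and B2, a mean of 0.150 ± 0.0354 (SD, n = 2), on the minus strand of chromosome 5 (171355876 to 171415354, rn6). The mean depth behind these values was between 1.70 and 3.33 reads per base. The libraries of A and B overlapped, and *Tp73* ranked 12179 of 17337 while *Reln* ranked 7558.

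Other markers of Cajal-Retzius cells were mostly low as well. Of 10 listed, 8 matched a gene name and 3 were with a mean of 1 FPKM or more, and none of the 8 was at 0 in every library. The highest was *Cxcr4*, a chemokine receptor found on many cell types, at 91.7 ± 21.0 FPKM (SD, n = 2), which was most of the summed level of 106 and 116 FPKM in A1 and A2 and of 77.5 and 91.0 in B1 and B2. Without *Cxcr4* the sum of the other 7 was 4.20 and 4.58 FPKM in A and 6.90 and 7.85 in B, so the direction of the sum depended on this gene. Of the 3 markers with a mean of 1 FPKM or more, 1 was higher (*Calb2*) and 1 lower (*Cxcr4*) in both libraries of B, near the 28.1% and 32.0% of all names. *Calb2*, encoding calretinin, was at 0.928 and 1.31 FPKM in A1 and A2 and at 3.36 and 2.09 in B1 and B2, a difference of 0.81, or 1.04 without B2. The other 6 are transcription factor genes. In both libraries of B *Ebf2* was higher (0.390 FPKM in A and 0.906 in B), as was *Lhx1* (0.460 and 0.529), and *Nhlh2* was lower (0.150 and 0.0868). The libraries overlapped for *Ebf3* (1.90 and 2.81), *Tbr1* (0.281 and 0.237) and *Lhx5* (0.0915 and 0.0822). The part of Cajal-Retzius cells in the level of *Reln* was not tested.

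None of the 8 genes differed between the replicates by at least 1 on the log2(FPKM + 1) scale while the libraries of A lay apart from those of B, against 6.20% of the 10481 names with a mean of 1 FPKM or more. The replicates belong to 1 condition, so these are descriptions of their spread and no test was made. Without the limit on size, 4 of the 8 genes (*Reln*, *Dab1*, *Nde1* and *Ndel1*) had both libraries of B above those of A, against 28.1% of the 10481 names. Another 2 (*Vldlr* and *Cdk5r1*) had both below, against 32.0%. Together 6 of the 8 had libraries that did not overlap, against 60.1% of all names tested. With a limit of 0.58 in place of 1 there were 2, *Reln* and *Nde1*, against 16.5% of all names.

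The median difference of B from A over the 8 genes was −0.02, near the −0.03 over all 10481 names. The median size of the difference regardless of sign was 0.25 and 0.24. In these terms the 8 genes varied between the cultures about as much as other expressed genes did. Of the 3 genes that varied most, *Reln* and *Nde1* were higher and *Vldlr* lower in B, each by more than its technical libraries differed.

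**Figure D3:**
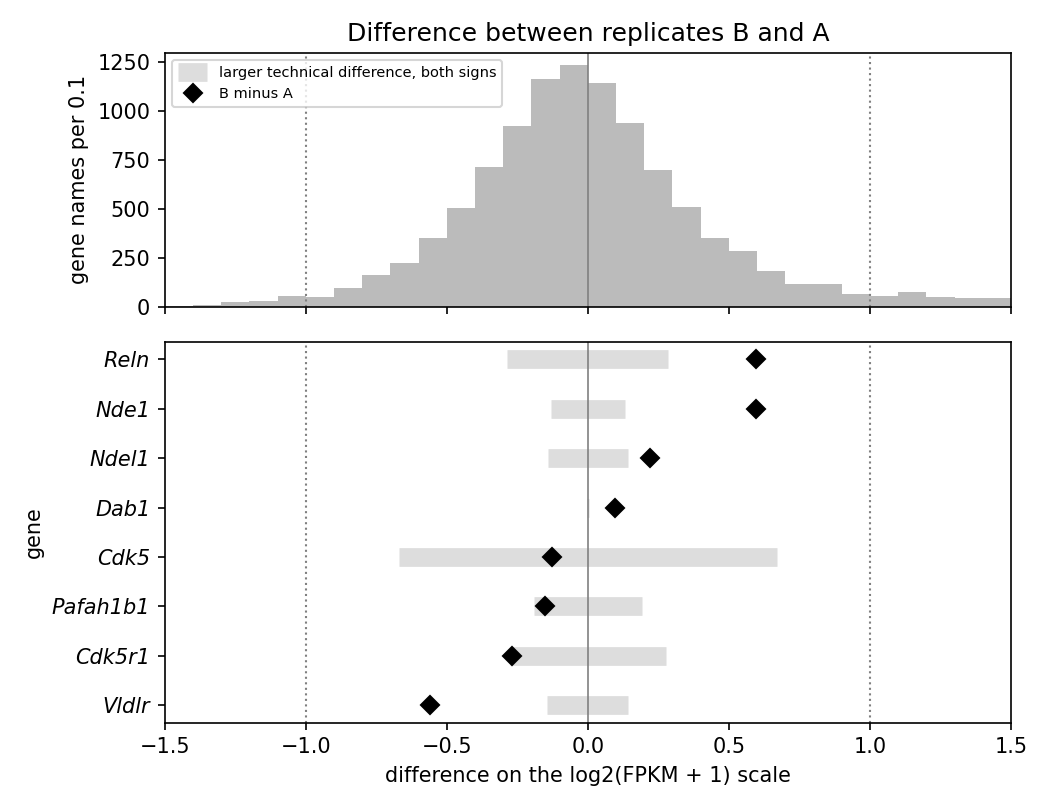
Upper panel: number of gene names with a mean of 1 FPKM or more by their difference of B minus A on the log2(FPKM + 1) scale, in steps of 0.1, drawn up to 1.5 in either direction, with 251 names beyond this limit. Lower panel: the same difference for the 8 genes (diamonds) over the larger of their technical differences drawn in both directions (grey bars); dotted lines mark −1 and 1, and all 8 diamonds lie between −0.56 and 0.60.

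The surrounding pathway was described from 4 lists of 72 genes in all, of which 68 matched a gene name and 66 were with a mean of 1 FPKM or more. The 2 below this level were *Adamts3*, a protease that cleaves Reelin, at 0.872 ± 0.199 FPKM (SD, n = 2), and *Disc1*, a scaffold that binds Ndel1, at 0.285 ± 0.135. Of the 66, 5 genes or 7.58% differed between the replicates by at least 1 with no overlap, against the 6.20% of all names, 4 higher and 1 lower in B. The median difference over the 66 was 0.06, and 25 genes had both libraries of B above those of A (28.1% of all names tested) and 18 had both below (32.0% of all names).

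Downstream of the receptors, 21 of 23 listed genes of the receptor tails and of adaptor signalling matched, all with a mean of 1 FPKM or more. The highest was *Cfl1*, encoding the actin-severing protein cofilin, at 1426 ± 33.9 FPKM (SD, n = 2). *Mylip*, encoding a ubiquitin ligase that sends lipoprotein receptors including VLDLR for degradation, was the 1 gene of the 21 that differed by at least 1 without overlap, against 6.20% of all names. It was measured at 3.60 and 3.09 FPKM in A1 and A2 and at 10.1 and 9.61 in B1 and B2, higher in B by 1.32 on the log2(FPKM + 1) scale. *Vldlr* mRNA was lower in the same libraries, with a difference of −0.56 that 18.1% of all names reached in either direction. VLDLR protein was not measured, and a link with *Mylip* was not tested. Of the 21 genes, 11 were higher in both libraries of B and 2 lower in both, against 28.1% and 32.0% of all names tested.

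Reelin is cut by extracellular proteases, and 15 of 16 listed genes of its processing and of surface partners matched, 14 with a mean of 1 FPKM or more. *Adamts2*, a protease of procollagen that also cleaves Reelin, was measured at 4.32 and 4.81 FPKM in A1 and A2 and at 13.6 and 20.0 in B1 and B2, a difference of 1.68 on the log2(FPKM + 1) scale. *Adamts4*, a proteoglycan-degrading protease, was at 2.98 and 2.37 FPKM in A and at 5.68 and 9.38 in B, a difference of 1.21 that fell to 0.86 without B2, below the limit of 1. *Pcsk6*, a proprotein convertase, went the other way, with 7.86 and 8.28 FPKM in A and 2.53 and 3.06 in B, a difference of −1.26. With B2 included, these were 3 of the 14 genes, against 6.20% of all names. Among the other proteases of the list, *Furin*, a proprotein convertase gene, differed by 0.25 and *Adamts3* by −0.22. The highest of the list was *Itgb1*, the integrin beta 1 gene, at 122 ± 15.8 FPKM (SD, n = 2), and 9 of the 14 were higher and 2 lower in both libraries of B, against 28.1% and 32.0% of all names.

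Among partners of Cdk5, 5 of 6 listed genes matched and all were with a mean of 1 FPKM or more. *Ccnd1*, encoding cyclin D1 of the G1 phase, was measured at 6.64 and 6.84 FPKM in A1 and A2 and at 19.8 and 21.3 in B1 and B2, a difference of 1.48, and was the 1 gene of the 5 that differed by at least 1 without overlap, against 6.20% of all names. *Cdk5rap3*, encoding a protein first found through its binding to p35, was the highest at 45.7 ± 5.96 FPKM (SD, n = 2). The kinase and its activator did not move with *Ccnd1*: *Cdk5* had overlapping libraries, and *Cdk5r1* was lower in B.

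The partners of dynein, LIS1 and microtubules formed the largest list, and its 27 genes all matched, 26 with a mean of 1 FPKM or more. None of the 26 differed by at least 1 between the replicates without overlap, against 6.20% of all names. The tubulin gene *Tuba1a* was highest at 1164 ± 136 FPKM (SD, n = 2). The median difference was −0.13, with 12 genes lower and 3 higher in both libraries of B, against 32.0% and 28.1% of all names, while *Nde1* and *Ndel1* were higher in both. *Dcx*, which encodes the microtubule-binding protein doublecortin of migrating neurons, was measured at 10.6 and 12.7 FPKM in A1 and A2 and at 7.81 and 7.64 in B1 and B2, a difference of −0.54. It was named for its role in migration, after its values were seen.

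**Figure D4:**
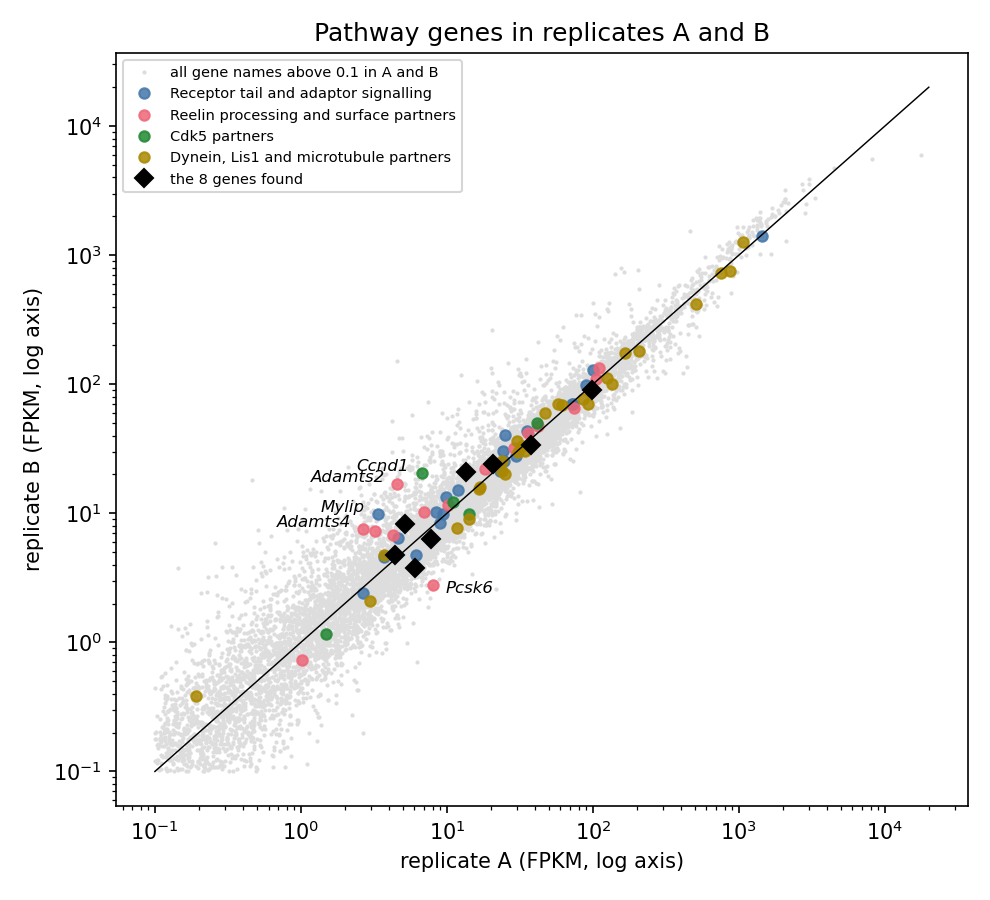
FPKM in replicate A against replicate B (both axes log, each point 1 gene name above 0.1 FPKM in both; diagonal, equal levels), with the 4 pathway lists in colour and the 8 genes as black diamonds. The 5 labelled genes differ by at least 1 on the log2(FPKM + 1) scale without overlap, *Mylip*, *Adamts2*, *Adamts4* and *Ccnd1* above the diagonal and *Pcsk6* below it, and no diamond does.

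Markers of several cell types also differed between the cultures. Of the 16 mesenchymal and meningeal markers 14 were higher in B by at least 1 without overlap, against 6.20% of all names in either direction. Without library B2, replicate B rests on 1 library. There the differences of *Foxc2* (0.62), *Tbx18* (0.89), *Zic1* (0.61), *Aldh1a2* (0.26) and *Ptgds* (0.73) fell below 1. All 16 were higher in both libraries of B (28.1% of all names), with *Col3a1*, a fibrillar collagen gene, highest at 486 ± 399 FPKM (SD, n = 2). Of the 10 progenitor markers 2 were lower in B by at least 1 without overlap, *Fabp7* and the Notch target *Hes5*, and 6 were lower in both libraries of B, against 6.20% of all names differing in either direction and 32.0% lower in both. The part of these cell types in the values of *Reln*, *Nde1*, *Vldlr*, *Mylip*, *Adamts2*, *Adamts4*, *Ccnd1* and *Pcsk6* was not tested.

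Neuron markers, 14 in number and 10 with a mean of 1 FPKM or more, summed to 217 and 246 FPKM in A1 and A2 and to 182 and 199 in B1 and B2, and *Tubb3*, a neuronal tubulin gene, was highest at 118 ± 9.88 (SD, n = 2). Of the 10, 1 was higher and 7 were lower in both libraries of B, against 28.1% and 32.0% of all names. The genes of the related neuronal RNA-binding proteins *Elavl4* and *Elavl3* went opposite ways, with differences of −1.07 and 0.53. Markers of GABAergic neurons, some of which make Reelin later in life, summed to 219 and 213 FPKM in A and to 111 and 105 in B. Their highest, the homeobox gene *Dlx1*, stood at 72.7 ± 46.9 and was lower in B by −1.40, the 1 gene of the 6 with a mean of 1 FPKM or more that differed by at least 1 without overlap, against 6.20% of all names. Both sums were lower in B, also without their highest gene (neuron markers 100 and 112 FPKM in A and 77.0 and 81.8 in B, GABAergic markers 107 and 114 in A and 71.3 and 66.2 in B). Not every GABAergic marker followed its sum. Of the 6 with a mean of 1 FPKM or more, 4 were lower and 0 higher in both libraries of B, against 32.0% and 28.1% of all names. The libraries overlapped for *Gad1* (6.17 FPKM in A and 5.18 in B) and *Slc32a1* (3.22 and 3.55). They also overlapped for *Lhx6* (0.454 and 0.520), which lay below 1 FPKM. The part of neurons of either kind in the values of *Reln* and the other genes was not tested.

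Oligodendrocyte lineage markers summed to 260 and 285 FPKM in A1 and A2 and to 695 and 354 in B1 and B2. *Olig1*, a transcription factor gene of this lineage, was their highest at 282 ± 139, and with *Pdgfra* it was higher in B by at least 1 without overlap, 2 of 4 genes with a mean of 1 FPKM or more against 6.20% of all names. Endothelial markers summed to at most 4.46 FPKM and microglial markers to at most 1.65 in any library, with 0 of 6 genes of either list at a mean of 1 FPKM. None of the markers matched was at 0 in all 4 libraries.

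**Figure D5:**
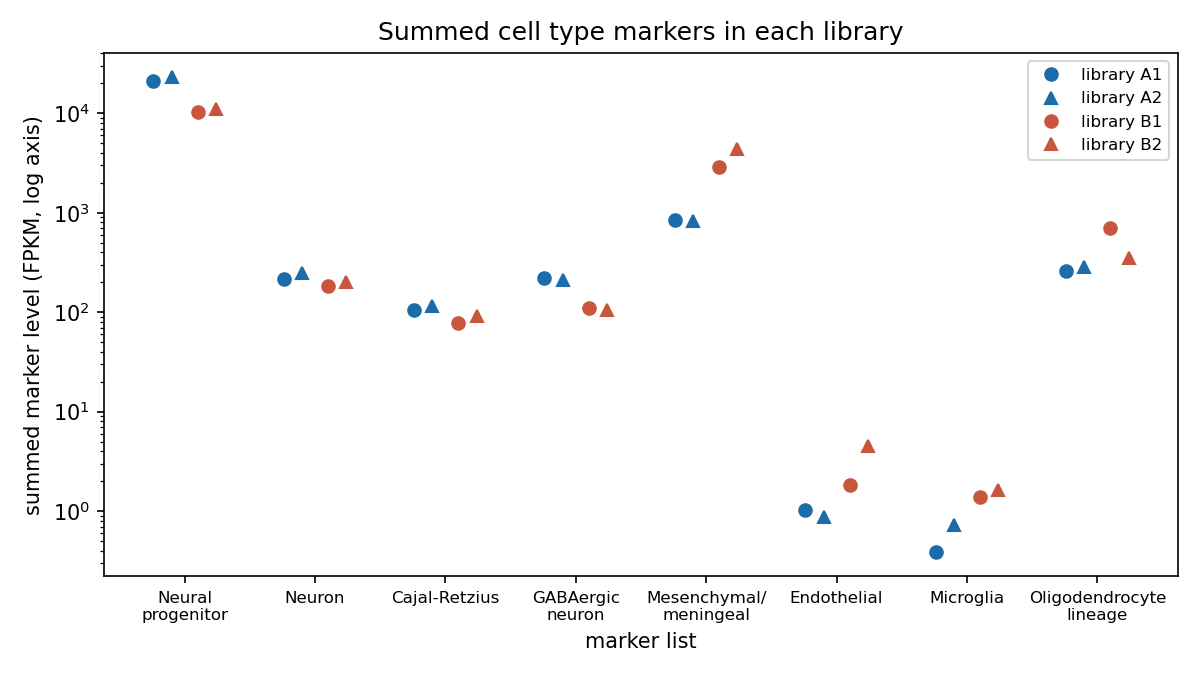
Summed FPKM of each cell type marker list (log axis) in libraries A1, A2, B1 and B2, with circles and triangles for the technical libraries and colours for the replicates. The mesenchymal and meningeal sum is higher in both libraries of B (2856 and 4364 against 849 and 821), and the progenitor, neuron, Cajal-Retzius and GABAergic sums are lower in both, the progenitor sum through *Fabp7* and the Cajal-Retzius sum through *Cxcr4*.

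The genes whose pattern over the 4 libraries lay closest to that of *Reln*, by the distance between log2(FPKM + 1) values centred on their mean, were *Minpp1*, *Akr1b1* and *Gadd45a*, out of 10480 other names with a mean of 1 FPKM or more. *Minpp1*, an inositol polyphosphate phosphatase gene, was at 8.71, 9.37, 15.8 and 13.0 FPKM in A1, A2, B1 and B2, a distance of 0.0417. *Akr1b1*, the aldose reductase gene, was at 47.0, 50.4, 79.3 and 66.1, a distance of 0.0462. *Gadd45a*, a gene induced by DNA damage, was at 47.3, 49.4, 83.9 and 65.4, a distance of 0.0521. Each shared with *Reln* the order B1, B2, A2, A1 from high to low. The genes were picked for closeness over these same 4 libraries, which come from 2 cultures, so the shared order follows from the choice.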

How the data were processed

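PolyA RNA-seq tables of 4 libraries were used, from 2 biological replicates with 2 technical libraries each, grouped by the sample titles. Reads had been mapped by the authors with STAR to rn6, and the processing notes also name cutadapt, HISAT and StringTie, with versions not given in the sources used here. The FPKM values were used as deposited: the authors' methods name Rsubread and DESeq2 as their source, while the tables are laid out as StringTie writes them. The TPM values made by the authors were used as an alternative. The deposited coverage, the mean read depth of a gene, is not scaled for library size and served to compare depth, since read totals are not in the tables. No interval for counting error was given, as FPKM holds no counts.

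FPKM was summed over rows of a gene name, technical libraries were averaged within a replicate, and mean and SD were taken over A and B. A gene name with a mean of 1 FPKM or more was counted as differing where the replicates lay 1 or more apart on the log2(FPKM + 1) scale, in which differences of low genes come out too small, and where no library of A overlapped those of B. With 1 condition no test was possible. Listed symbols were matched by name or through RefSeq synonyms, and the promoter windows are from RefSeq on GRCr8.

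The genes, the pathway and marker lists and the rules were chosen with earlier results of these data known. Named are the listed genes, the pathway genes that differed between A and B and the highest of each list, markers highest in their list or at 0 throughout, and the 3 names closest in pattern to the gene with the largest difference in FPKM. *Calb2*, *Lhx1*, *Lhx5*, *Ebf2*, *Ebf3*, *Nhlh2*, *Tbr1*, *Elavl3*, *Elavl4*, *Hes5*, *Pdgfra*, *Furin*, *Adamts3*, *Disc1*, *Cdk5r2* and *Dcx*, and the genes whose listed spans contain *Cdk5r1* or *Nde1*, were named after their values were seen. The same holds for *Gad1*, *Slc32a1* and *Lhx6*, and for the markers named as falling below the limit without B2. Alternatives were TPM, median-ratio scaling, leaving out A, B or B2, another pseudocount, other minimum levels and a smaller difference; means of logs, differences of single genes under other settings, and list counts without B2 and list sums without the highest gene were added after seeing the data. The counting was tested on simulated data. Python 3.11.15, pandas 2.3.3, numpy 2.4.6 and matplotlib 3.10.9 were used. Start-seq values were not analysed here.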

Additional observations from a re-analysis of the deposited data

Results flagged for a closer look

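Of 48 values examined over the 4 libraries, 2 had a library far from the others, both of them B2. The coverage that corresponds to 1 FPKM was 6.83 in B2 and between 22.7 and 24.4 in the other libraries. The summed FPKM of the Reelin processing and surface partners was 562 in B2 and between 448.9 and 467.6 in the other libraries. Chance alone sets about 1 in 20 such groups apart. The 4 libraries are technical pairs of 2 cultures and not 4 independent samples. None of the 9 genes described (0 of 9, the 8 genes and *Tp73*) had a library that far apart in FPKM.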

How the results depend on the processing

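Alternatives gave 98 values over 21 results. The 8 genes with a mean of 1 FPKM or more became 4 with a minimum of 10 FPKM, since fewer genes reach it. The 0 of 8 genes differing between A and B became 2 with a difference of 0.58 in place of 1, where the count over all gene names became 1725 in place of 650; with a minimum of 10 FPKM it became 331, by construction. The log2 ratio of *Cdk5r1* to *Cdk5* was −3.75 and became −3.95 without library B2, where *Cdk5* was at 105 FPKM, and lay between −3.84 and −3.66 with 1 replicate left out. That of *Nde1* to *Ndel1* lay between −0.60 and −0.19. Of 24 differences of single genes under TPM, rescaling or without B2, 1 changed sign (*Cdk5* without B2); the cause was not tested. Without B2 the mesenchymal markers higher in B by at least 1 were 9 in place of 14 (*Foxc2*, *Tbx18*, *Zic1*, *Aldh1a2* and *Ptgds* fell below it), *Adamts4* was below the limit and *Calb2* passed it. Median-ratio scaling factors were 0.991 to 1.01. The ratio of *Vldlr* to *Lrp8* was not run, since *Lrp8* matched no gene name. No paired analysis was possible because the groups that share replicate letters are different assays and the Start-seq values were not analysed here. With 2 cultures, an SD has 1 degree of freedom, and values of B2 rest on the lowest coverage.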
